A study of Mus musculus with 20 samples.

Results

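The genes described here are 9 markers of glial cells, measured by RNA-seq in mouse neurons in culture after NMDA. They are 5 markers of astrocytes (Gfap, Gja1, Aldh1l1, Slc1a2 and Aldoc) and 4 of the oligodendrocyte lineage (Olig1, Olig2, Sox10 and Pdgfra). They were chosen by gene symbol, and all 9 were found among the 21937 genes of the deposited RNA table. These markers and the other gene lists below were chosen with earlier results of these data known. The compared cultures were day 10 neurons given 200 µM NMDA for 6 h, with 2 libraries, and day 10 neurons given DMSO alone for the same time, with 2 libraries. Cells of both groups carry the strain label 159.2 and were washed in balanced salt solution before and after treatment. NMDA opens a class of glutamate receptors that is named after it. The series holds 20 samples in all, and its FAIRE-seq and H3K27ac tables were not used here, because their regions carry neither a position nor a gene. Whether the 2 libraries of each group stem from separate cultures is not stated, so p-values reflect the spread between libraries alone, and that spread may be technical.

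Astrocytes and oligodendrocytes are the macroglia of the central nervous system, and both arise from the neural progenitors that also give rise to neurons. Astrocytes clear glutamate from the synaptic cleft, couple to each other through gap junctions and build up intermediate filaments when tissue is injured. Oligodendrocyte precursors are set up by the OLIG and SOX transcription factors, divide in response to platelet-derived growth factor and later make myelin. Most of these markers are not private to glia: radial glia carry several of the astrocyte genes, Olig2 and Olig1 are also used in progenitors of some neurons, Sox10 marks the neural crest, and Pdgfra marks many fibroblasts.

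The RNA values are the authors' normalised read counts, written below as counts. The reads recovered from these counts, summed over genes, were 20149813 and 16833459 after NMDA and 20127348 and 15008112 in the controls. Changes are differences of the group means of log2(count + 1), NMDA minus control, with the standard error and adjusted p-value of limma-trend. Genes with a mean of at least 10 counts over the 4 libraries were tested, and an adjusted p under 0.05 is called a rise or a fall. The cultures expressed neuronal genes strongly, with 24096 to 28109 counts of the neuronal tubulin gene Tubb3 in every library. Fibroblast genes were strong too, with 44801 to 127266 counts of the collagen gene Col3a1. Tubb3 was called neither a rise nor a fall, while of the 13 pan-neuronal genes 7 fell and 1 rose. The shares over all tested genes were 21.5% falls and 20.5% rises.

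Of the 9 glial markers, 8 were tested, and 7 of these rose after NMDA: Olig2, Gja1, Olig1, Pdgfra, Aldh1l1, Gfap and Slc1a2. Aldoc did not pass, and Sox10 was too low to test. No marker fell by limma, edgeR or DESeq2 (0 also at an unadjusted p under 0.05). Over all 13888 genes tested, 20.5% rose and 21.5% fell. On the recovered reads, edgeR called 7 markers as rises (20.9% of all tested genes rose and 20.7% fell) and DESeq2 called 6 (17.6% rose and 18.1% fell). The median log2 change of the 8 tested markers was 0.86, beside -0.0055 over all tested genes, and 3 of the 8 rose by at least 1 on this scale, as did 3.56% of all tested genes. Both NMDA libraries lay above both controls for 7 of the 8 tested markers, against 36.6% of all tested genes, and also for Sox10, which was not tested. In bulk RNA, a different share of cells of one type and a different amount of RNA per cell cannot be told apart. Without control replicate 1, 3 of the 8 markers rose (Gja1, Olig1 and Olig2), against 7.7% of all tested genes in that fit. Without control replicate 2, 5 rose, against 10.5% of all tested genes.

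**Figure D1:**
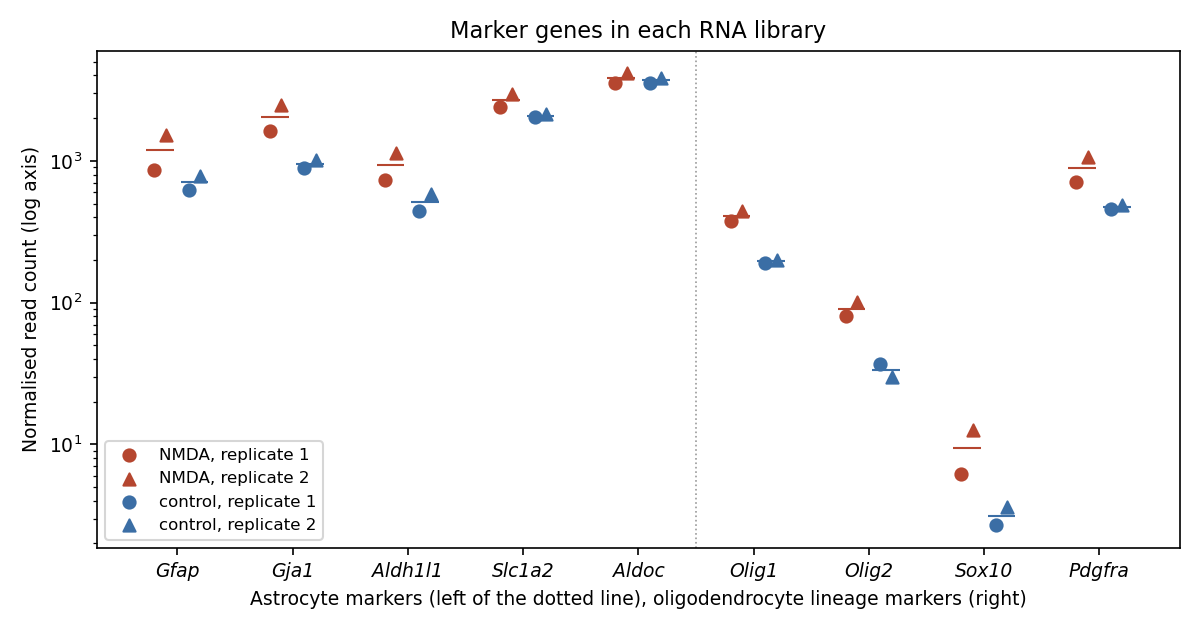
Normalised read counts of the 9 markers in each library, on a log axis, with NMDA libraries in red left of control libraries in blue and a horizontal line at each group's mean (n = 2). The NMDA points lie above the control points for every gene but Aldoc, whose 4 values run between 3534 and 4142 counts.

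Among the astrocyte markers, the connexin gene had the largest log2 change. Gja1, which encodes connexin 43, the main gap junction protein of astrocytes, had 1635 and 2470.3 counts in NMDA libraries, against 891 and 1019 in control libraries. The lower NMDA value lay well above the higher control value. The means were 2052 ± 591 after NMDA and 955 ± 90.2 in the controls (SD, n = 2 each). On the log2 scale the change was 1.08 with a standard error of 0.17 (limma adjusted p = 0.00213). The rise passed the test whichever library was left out, with log2 changes between 0.78 and 1.37.

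Aldh1l1, a folate enzyme used as a broad marker of astrocytes, had 732 and 1144 counts after NMDA, against 443 and 582 in the controls. The groups did not overlap, but the pairs lay far apart within each group. Its log2 change was 0.85 ± 0.20 (limma adjusted p = 0.0114), and without control replicate 1 the call was lost (0.65 ± 0.25, adjusted p = 0.115).

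Gfap, the intermediate filament gene of mature and reactive astrocytes, had 855 and 1527 counts after NMDA, against 626 and 784 in the controls. NMDA replicate 1 stood just above the higher control, and NMDA replicate 2 stood far above the other 3 libraries. The log2 change was 0.71 ± 0.23 (limma adjusted p = 0.0396). Of the 7 calls, this one was lost under the most alternatives. It did not hold without NMDA replicate 2 (log2 change 0.29, adjusted p = 0.156), without control replicate 1 (0.54, adjusted p = 0.247), without control replicate 2 (0.87, adjusted p = 0.0754), with quantile normalisation (0.76, adjusted p = 0.0534) and with DESeq2 on the recovered reads (0.77, adjusted p = 0.167).

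Slc1a2 encodes GLT-1, the transporter that takes up most synaptic glutamate in the forebrain. It had 2403 and 2966 counts after NMDA, against 2038 and 2132 in the controls. The groups did not overlap, and the difference was smaller than for the other markers that rose, at 0.36 ± 0.11 on the log2 scale (limma adjusted p = 0.0282). The call was lost without NMDA replicate 2 (0.21, adjusted p = 0.0925), and likewise when control replicate 1 (0.32, adjusted p = 0.199) or control replicate 2 (0.39, with 0.117 as its adjusted p) was left out.

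Aldoc, the brain form of the glycolytic enzyme aldolase, had 3534 and 4142 counts after NMDA, against 3534 and 3864 in the controls. The first libraries of both groups were level, and the groups overlapped. Its log2 change was 0.05 ± 0.10 (limma adjusted p = 0.716), and its sign turned without NMDA replicate 2 (-0.06) or control replicate 1 (-0.01). A p that misses the threshold does not show that Aldoc was alike in both groups.

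RefSeq promoter sequences (GRCm38.p6, the 250 bases before the annotated start) were matched for 7 of the 9 markers, all but Olig1 and Sox10. The astrocyte genes with the largest and the smallest change are shown together so that the letters near their starts can be compared. Capitals mark matches, on either strand, to an AP-1 motif (TGANTCA), a STAT motif (TTCCNGGAA) or an E-box (CANNTG).
Gja1, chr10:56377050-56377299, plus strand: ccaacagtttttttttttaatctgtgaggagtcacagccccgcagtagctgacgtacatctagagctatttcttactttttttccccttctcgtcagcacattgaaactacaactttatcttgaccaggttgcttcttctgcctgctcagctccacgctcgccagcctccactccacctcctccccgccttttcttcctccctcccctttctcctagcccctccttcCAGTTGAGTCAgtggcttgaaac
Aldoc, first entry, chr11:78322823-78323072, plus strand: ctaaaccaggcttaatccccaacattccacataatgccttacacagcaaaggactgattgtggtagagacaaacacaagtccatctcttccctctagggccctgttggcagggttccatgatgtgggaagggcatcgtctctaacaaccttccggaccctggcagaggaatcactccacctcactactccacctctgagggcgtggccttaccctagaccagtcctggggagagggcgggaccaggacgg
In Gja1 the capitals are an AP-1 match that begins 19 bases before the start and an E-box match that begins 23 bases before it, and the pair overlap. Among the 32851 RefSeq promoter entries cut in the same way, 6.75% hold the AP-1 motif, 66.2% the E-box and 0.913% the STAT motif. Gja1 was the only one of the 7 matched markers with an AP-1 match in this window. The first Aldoc entry holds none of the 3 motifs, and its second entry holds 1 STAT match. These matches describe letters in a window and do not show that a factor binds there.

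All 3 tested markers of the oligodendrocyte lineage rose, as did 20.5% of all tested genes. Olig1, a basic helix-loop-helix factor of oligodendrocyte precursors and their progenitors, had 376 and 441 counts after NMDA, against 190.3 and 201 in the controls. The libraries of each group lay close together, and the groups were well separated. The log2 change was 1.05 ± 0.13, with the smallest adjusted p among the markers (limma adjusted p = 0.000907), and it passed the test whichever library was left out (0.94 to 1.17).

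Olig2, the neighbouring gene of Olig1 and the factor that specifies the lineage, had 79.9 and 100.7 counts after NMDA, against 36.8 and 29.9 in the controls. These values rest on 91 and 96 reads after NMDA and on 41 and 25 reads in the controls. Olig2 had the largest log2 change of the tested markers, 1.41 ± 0.23 (limma adjusted p = 0.00254), and passed without any one library (1.24 to 1.57). Whether Olig2 and Olig1 changed by different amounts was not tested.

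Pdgfra, the receptor through which platelet-derived growth factor drives precursor division, had 707 and 1062 counts after NMDA, against 459.7 and 485 in the controls. The controls were nearly level, and both NMDA libraries lay above them. The log2 change was 0.87 ± 0.17 (limma adjusted p = 0.00466), and the adjusted p was 0.0544 without control replicate 1 (0.84 ± 0.23). Beside it, 14 of 14 fibroblast and mesenchyme genes rose, as did 20.5% of all tested genes. The summed levels of these 14 genes were 239933 and 322034 counts in NMDA libraries and 129519 and 118556 counts in control libraries. The part of fibroblasts in the Pdgfra values was not tested.

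Sox10, an HMG-box factor of oligodendrocytes and the neural crest, was close to the detection limit. It had 7 and 12 reads after NMDA, or 6.15 and 12.6 counts, against 3 and 3 reads in the controls, or 2.69 and 3.59 counts. The ratio of the summed reads, scaled to the normalised values, was 2.95 (95% exact binomial interval 1.13 to 9.02, which covers counting error only). Fitted with no filter on low values, its log2 change was 1.26 ± 0.50 (limma adjusted p = 0.0872) and did not pass. Sox10 aside, every marker had more than 10 counts in each of the 4 libraries.

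The promoter of the lineage marker with the largest change is printed for comparison with that of Gja1.
Olig2, chr16:91225300-91225549, plus strand: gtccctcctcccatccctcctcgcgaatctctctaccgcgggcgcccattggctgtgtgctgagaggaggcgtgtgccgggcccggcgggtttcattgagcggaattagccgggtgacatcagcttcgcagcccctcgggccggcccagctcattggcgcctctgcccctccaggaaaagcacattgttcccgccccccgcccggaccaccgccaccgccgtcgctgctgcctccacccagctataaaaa
It holds no match to the AP-1, STAT or E-box letters in this window, and neither does that of Gfap. Aldh1l1 and Pdgfra hold 1 E-box match each, and Slc1a2 holds 4.

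**Figure D2:**
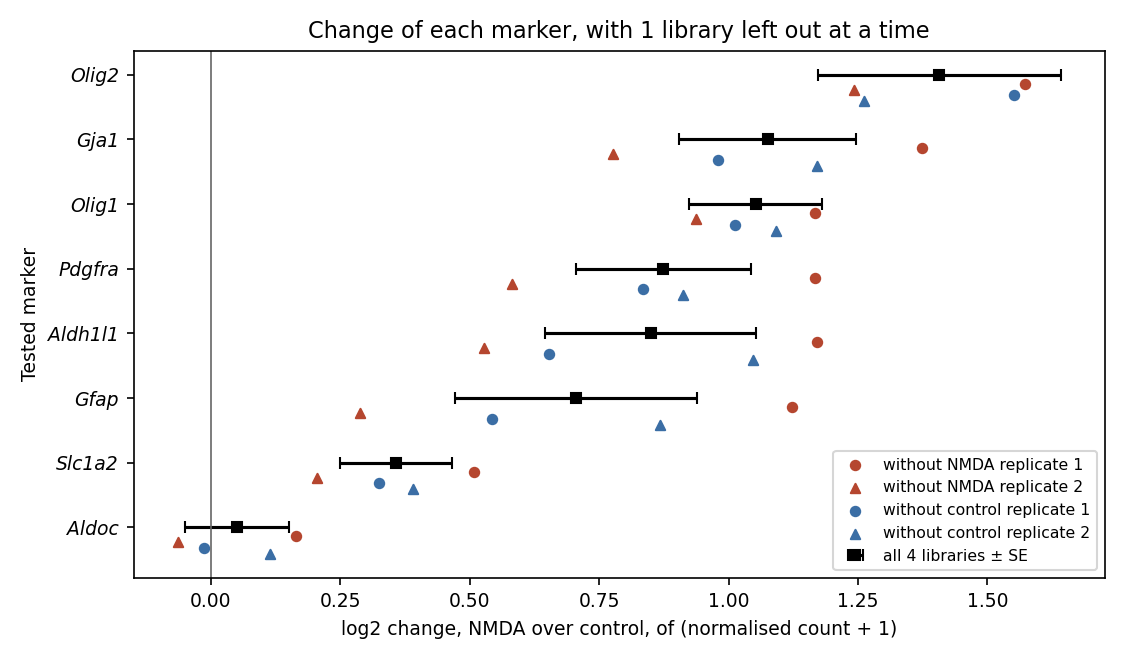
The log2 change of each tested marker with all 4 libraries (black squares ± SE) and with 1 library left out (red for NMDA libraries, blue for controls). Leaving out NMDA replicate 2 gave the lowest value for each marker, between -0.06 for Aldoc and 1.24 for Olig2.

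The markers shared a pattern between the libraries of one group. NMDA replicate 2 lay above NMDA replicate 1 for 9 of the 9 markers, the untested Sox10 included, while this held for 49.2% of all tested genes. The ratio of the 2 NMDA libraries was 1.79 for Gfap, 1.56 for Aldh1l1, and 1.51 for Gja1, but 1.17 for Olig1 and 1.17 for Aldoc. Control replicate 2 lay above control replicate 1 for 8 of the 9, against 46.8% of all tested genes, with Olig2 as the exception and with the highest ratios for Sox10 (1.33, at 3 reads each), Aldh1l1 (1.31) and Gfap (1.25). The fibroblast and mesenchyme genes, the progenitor genes and the other astrocyte genes were also higher in NMDA replicate 2 than in NMDA replicate 1 by their summed level, and the pan-neuronal genes were lower (146676 against 166209 counts). Between the controls, the fibroblast sum was lower in replicate 2 than in replicate 1 (118556 against 129519 counts). The pan-neuronal sum was higher there (185294 against 178527), as were the progenitor (12615 against 11545) and other astrocyte sums (26394 against 24111). What sets these libraries apart was not tested. Without NMDA replicate 2 the median log2 change of the 8 markers was 0.55, with 5 rises against 14.9% of all tested genes, and without NMDA replicate 1 it was 1.17, with 7 rises against 21.8%.

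Most other astrocyte genes rose. Of 18 listed, 16 were tested, 12 rose and none fell (0 at an unadjusted p under 0.05, and 0 by edgeR and DESeq2), with a median log2 change of 0.79 beside -0.0055 over all tested genes. The shares over all tested genes were 20.5% rises and 21.5% falls. Acsbg1, an acyl-CoA synthetase, had 435 and 453 counts after NMDA, against 223 and 213 in the controls (1.02 ± 0.11, limma adjusted p = 0.000748). Aqp4, the water channel of astrocyte endfeet, had 211 and 556 counts after NMDA, against 184 and 245 in the controls, and did not pass (0.69 ± 0.37, limma adjusted p = 0.171). S100b and Gjb6, which encode a calcium-binding protein and connexin 30, were too low to test, at no more than 9.66 counts in any library. Without control replicate 1, 5 of the 16 rose. The summed level of the 18 genes was 37508 and 50848 counts after NMDA, against 24111 and 26394 in the controls.

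Genes that astrocytes switch on in injury also rose. Of 15 such genes, 13 were tested, 10 rose and none fell (0 at an unadjusted p under 0.05, and 0 by edgeR and DESeq2), with a median of 1.01, and 6 rose without control replicate 1 or without control replicate 2. With all 4 libraries, the shares over all tested genes were 20.5% rises and 21.5% falls. Vim, the intermediate filament vimentin, had 11960.5 and 15849 counts after NMDA, against 6444 and 7732 in the controls (0.96 ± 0.15, limma adjusted p = 0.00177). Emp1, a membrane protein gene, rose by 1.10 ± 0.12. Lcn2, the lipocalin typical of inflamed tissue, had at most 1.05 counts in any library, and Serpina3n did not pass (0.67 ± 0.33, limma adjusted p = 0.134). Vim is also abundant in progenitors and fibroblasts, so this list is not particular to astrocytes.

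The other genes of the oligodendrocyte lineage moved in both directions. Of 15 listed, 10 were tested, with a median of 0.46. Of these, 5 rose and 2 fell, beside 20.5% rises and 21.5% falls over all tested genes. Ptprz1, a receptor phosphatase of precursors and radial glia, had 2943 and 3191 counts after NMDA, against 2153 and 2059 in the controls (0.54 ± 0.08, limma adjusted p = 0.00188). Omg, a myelin glycoprotein gene that neurons also express, fell by 0.88 ± 0.14 to 164 and 137 counts after NMDA, against 290.0 and 266 in the controls. Sox8, chosen after its value was seen as a close relative of Sox10, rose by 1.59 ± 0.31. Lhfpl3, also chosen after its value was seen, fell by 0.40 ± 0.10 to 729.5 and 757 counts after NMDA, against 911 and 1057 in the controls (limma adjusted p = 0.0134). Vcan, the matrix proteoglycan versican, likewise chosen, rose by 0.66 ± 0.13 to 4161 and 5640.2 counts after NMDA, against 2988 and 3140 in the controls (limma adjusted p = 0.00545). The 5 genes too low to test were Cspg4, Nkx2-2, Gpr17, Bcas1 and Enpp6, none above 13.2 counts in any library. Without control replicate 1 there were 3 rises, and without control replicate 2 there was 1 fall.

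Myelin genes had no common direction. Of 15 listed, 7 were tested, with a median of -0.02. Of these, 1 rose and 1 fell, beside 20.5% rises and 21.5% falls over all tested genes. Mog, a myelin surface protein gene, had 142 and 117 counts after NMDA, against 213 and 196 in the controls (-0.66 ± 0.16, limma adjusted p = 0.0107). Ugt8a, a galactolipid enzyme gene, rose by 0.96 ± 0.29 at 39.5 and 33.6 counts after NMDA, against 19.8 and 16.8 in the controls. Mbp, a major myelin protein gene, did not pass (-0.26 ± 0.12, limma adjusted p = 0.112). Opalin was at 0 in every library, Mag had at most 5.27 counts and Mobp at most 6.15. The summed level was 1019 and 1021 counts after NMDA, against 1164 and 1080 in the controls. Each of these calls was lost when control replicate 1 or control replicate 2 was left out, with 0 rises and 0 falls by limma. At an unadjusted p under 0.05 there were then 1 rise and 1 fall without control replicate 1, and 1 rise and 2 falls without control replicate 2. Without NMDA replicate 1 or without NMDA replicate 2 there were 0 rises by limma (3 and 1 at an unadjusted p under 0.05). The lineage genes were thus unevenly present in these libraries: Olig1, Olig2 and Pdgfra were tested, as were 10 of 15 other lineage genes and 7 of 15 myelin genes, while Sox10 and the rest were under the minimum.

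**Figure D3:**
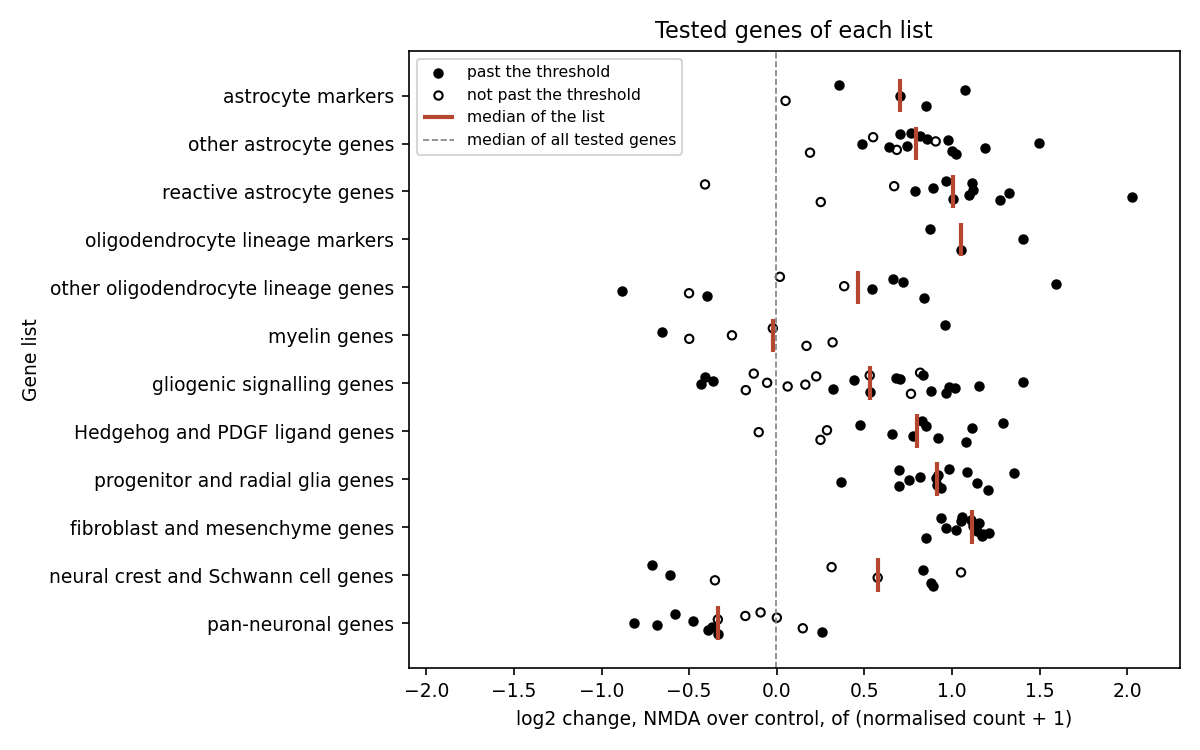
Log2 change of every tested gene in 12 lists (filled points passed the test, open points did not), with the median of each list in red and that of all tested genes as a dashed line. The medians of the astrocyte, progenitor and fibroblast lists lie between 0.71 and 1.11, that of the myelin genes at -0.02 and that of the pan-neuronal genes at -0.34.

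Genes of the signals that push progenitors towards glia were mixed. Of 24 genes of the gp130, STAT and BMP pathways and their nuclear factors, 12 rose and 3 fell, with a median of 0.53. The shares over all tested genes were 20.5% rises and 21.5% falls. The nuclear factor I genes Nfib and Nfix, regulators of gliogenesis, rose by 0.70 ± 0.10 and 0.68 ± 0.10. Bmp4, a ligand that favours astrocytes over oligodendrocytes, had 211 and 192 counts after NMDA, against 103 and 102 in the controls (0.97 ± 0.15, limma adjusted p = 0.00184, chosen after its value was seen). Stat3, the factor that activates the Gfap promoter, did not pass (-0.13 ± 0.18, limma adjusted p = 0.595, likewise chosen), and the receptor kinase gene Jak1 fell by 0.43 ± 0.10, also chosen after its value was seen. The rises numbered 3 without control replicate 1, 6 without control replicate 2 and 6 without NMDA replicate 2. The falls numbered 1 without control replicate 1 and, by limma, 0 without control replicate 2 (1 at an unadjusted p under 0.05).

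Sonic hedgehog induces the Olig genes in the ventral neural tube, and platelet-derived growth factors are the ligands of Pdgfra. Of 12 genes of these ligands and of Hedgehog reception, 9 rose and none fell (0 at an unadjusted p under 0.05, and 0 by edgeR and DESeq2), with a median of 0.80. The shares over all tested genes were 20.5% rises and 21.5% falls. Boc, a Hedgehog co-receptor, had 994 and 1129 counts after NMDA, against 496 and 505 in the controls (1.08 ± 0.10, limma adjusted p = 0.000698), and Smo, the signal transducer, rose by 0.83 ± 0.12. Shh itself had 71.1 and 79.7 counts after NMDA, against 42.2 and 21.6 in the controls (1.29 ± 0.32, limma adjusted p = 0.0129, chosen after its value was seen). Pdgfa, the ligand of precursors, did not pass (-0.10 ± 0.12, limma adjusted p = 0.514), while Pdgfc rose by 1.12 ± 0.20; both were chosen after their values were seen.

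Progenitor and fibroblast genes rose in the same libraries, while neural crest and Schwann cell genes moved in both directions. Over all tested genes, 20.5% rose and 21.5% fell. All 14 progenitor and radial glia genes rose (median 0.92), with summed levels of 20559.6 and 25339 counts after NMDA, against 11545 and 12615 in the controls, and with Tnc, a matrix glycoprotein, up by 0.98 ± 0.08 and Notch1 up by 0.91 ± 0.09. Without control replicate 1, 5 of them rose, and without control replicate 2, 9 did. All 14 fibroblast and mesenchyme genes rose (median 1.11), with Mmp2, a matrix protease, up by 1.16 ± 0.09 and Col6a1, a collagen, up by 1.14 ± 0.12. Of 13 pan-neuronal genes 7 fell and 1 rose (median -0.34), with the neurofilament gene Nefm down by a log2 change of -0.81 ± 0.11 and Rbfox3 by -0.48 ± 0.08. Of these, 3 fell without control replicate 1 and 3 without control replicate 2. The 1 rise was lost without control replicate 1, control replicate 2 or NMDA replicate 1. Of 12 neural crest and Schwann cell genes, the other cells that use Sox10, 9 were tested, 3 rose and 2 fell (median 0.58, beside 20.5% rises and 21.5% falls over all tested genes), and the summed level was 4980.4 and 6435 counts after NMDA, against 4555 and 4724 in the controls. Ednrb, the endothelin receptor also carried by astrocytes, rose by 0.89 ± 0.18, and Tcfap2b, an AP-2 factor, fell by 0.71 ± 0.11. Leaving out control replicate 1 gave 0 rises by limma (1 at an unadjusted p under 0.05) and 1 fall, control replicate 2 gave 1 fall, and NMDA replicate 2 gave 1 rise and 1 fall. Among 8 microglia genes, 1 was tested, and P2ry12 and C1qa were at 0 in every library. The summed level of the 8 was 209 and 219 counts after NMDA, against 133 and 138 in the controls. Nearly all of it was Tmem119, the tested gene, with 198 and 211 counts after NMDA, against 123 and 132 in the controls.

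**Figure D4:**
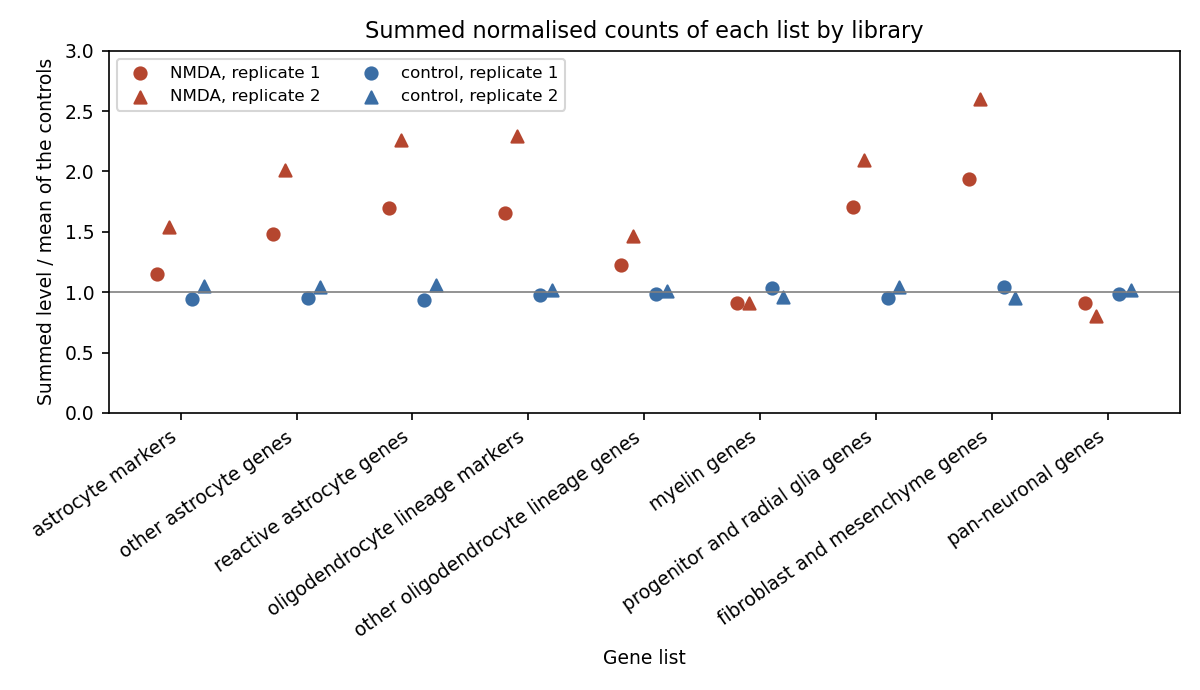
Summed normalised counts of 9 lists in each library, divided by the mean of the 2 controls, with NMDA libraries in red left of control libraries in blue. The 4 oligodendrocyte lineage markers reach 1.66 and 2.29 after NMDA and the 5 astrocyte markers 1.15 and 1.54, while the fibroblast genes reach 1.93 and 2.60, the progenitor genes 1.70 and 2.10 and the pan-neuronal genes 0.91 and 0.81.

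By summed level the 5 astrocyte markers stood at 9159 and 12251 counts after NMDA, against 7532 and 8381 in the controls, a sum that Aldoc and Slc1a2 dominate. The 4 lineage markers stood at 1168 and 1615 counts after NMDA, against 689 and 719.7 in the controls. These sums moved in the same direction as those of the progenitor and fibroblast genes, and opposite to that of the pan-neuronal genes, whose 4 libraries held 166209 and 146676 counts after NMDA, against 178527 and 185294 in the controls. The part of progenitors, fibroblasts or a smaller share of neuronal RNA in the marker values was not tested.

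The genes most like Gja1 over the 4 libraries, by the distance between centred log2 values over the 11987 genes whose mean was 50 or more, were Coq10b (distance 0.0422), Itm2a (0.0545) and Cobll1 (0.0660). Coq10b, which encodes a coenzyme Q binding protein, had 460.0 and 672 counts after NMDA, against 242 and 281 in the controls. Those most like Olig1 were Lamb2 (distance 0.0396), Bcan (0.0422) and Ltbp4 (0.0423). Bcan, which encodes the brain proteoglycan brevican, had 2652 and 3099 counts after NMDA, against 1297 and 1409 in the controls. These distances over 4 libraries are a description only.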

How the data were processed

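RNA-seq of 4 libraries was analysed, with groups and replicate numbers taken from the sample titles. Per the submitters' processing notes, reads were handled on mm9 with TopHat, Bowtie, HTSeq and DESeq. Versions, roles, annotation and strandedness were not given in the sources used here. The authors deposited a signal per gene and library, normalised read counts, which are whole multiples of 1 step per library (0.878 to 1.20 per read). Of the values, 99.98% to 100% came out as whole reads within 0.0051. RefSeq genes that overlap Aldh1l1, Slc1a2, Olig2 and Pdgfra have no row in the RNA table, so their reads could not be told apart.

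Genes with a mean of at least 10 were fitted on log2(value + 1) by limma-trend, from limma 3.58.1 under R 4.3.3. The model held only the group, tests were 2-sided, and p-values were adjusted over 13888 genes by Benjamini and Hochberg, with a threshold of 0.05. The scale understates changes of low genes. edgeR 4.0.16, which called 2905 rises and 2877 falls, and DESeq2 1.42.0 were run on recovered reads as alternatives. The other alternatives were pseudocounts of 0.5 and 5, no filter, a mean of at least 50, quantile normalisation, each library left out, and a replicate block. Fits were tested on simulated data. Where 1 library was left out, the lone library of its group was assumed to vary like the other group.

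The members, the 14 other gene lists and the naming rule were chosen with earlier results of these data known. The rule named all members, for each list the 2 called genes of smallest p, or its 2 genes of highest mean if none was called, and the 3 genes nearest to Gja1 and to Olig1. Myrf, Map2, Tfap2a and Tfap2b were matched by older symbols. A gene that the rule named is not reported here.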

Additional observations from a re-analysis of the deposited data

How the results depend on the processing

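Olig1, Olig2 and Gja1 kept their direction and their call under all 12 alternatives, and no marker that passed the test changed direction under any. Leaving out 1 library at a time gave ranges of log2 change of 0.29 to 1.12 for Gfap, 0.53 to 1.17 for Aldh1l1, 0.21 to 0.51 for Slc1a2, 0.58 to 1.17 for Pdgfra and -0.064 to 0.16 for Aldoc, whose sign turned without NMDA replicate 2 (-0.064) and control replicate 1 (-0.014). Gfap lost its call with quantile normalisation (0.76) and DESeq2 (0.77). The alternatives that kept all 4 libraries gave 2260 to 3685 rises and 2324 to 3782 falls over all genes. The ranges of counts that follow are from the fits with 1 library left out. Rises numbered 3 to 7 for the markers. Over all genes there were 1069 to 3033 rises and 915 to 3334 falls.

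In the lists, the same ranges of rises were 5 to 13 for other astrocyte genes, 6 to 10 for reactive genes, 3 to 6 for other lineage genes (falls 1 to 2), 0 to 0 for myelin (falls 0 to 1), 3 to 15 for gliogenic genes (falls 0 to 4), 5 to 14 for progenitor genes, 0 to 1 for pan-neuronal genes (falls 3 to 9), 0 to 4 for neural crest genes (falls 1 to 2), 0 to 1 for microglia, 1 to 3 for endothelium and 0 to 4 for endoderm. Myelin genes had 2 rises with no filter, 0 where the mean had to reach 50 (0 at an unadjusted p under 0.05), 0 with DESeq2 (0 unadjusted) and, with quantile normalisation, 0 rises (1 unadjusted) and 2 falls, all by limma except DESeq2. Neural crest genes had 1 rise with quantile normalisation, DESeq2 or a mean of at least 50, and pan-neuronal genes 0 with DESeq2 (1 unadjusted). The causes were not tested.

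The replicate number as a block gave 2 rises and 3 falls for myelin, and 6, 4 and 4 rises for neural crest, endothelial and endoderm genes, with the same 7 markers called. Same-numbered libraries shared deviations (correlation 0.34 over tested genes), but with 2 pairs and no label this is a hint, and pairing was not assumed. Sox10, at 3 to 12 reads, was too low to test.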

Other observations

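Markers of microglia and pluripotent cells were sparse, with 1 gene tested in each list, while most endothelial and endoderm genes were tested. Of 7 endothelial genes, 6 were tested, with a median log2 change of 0.66. Of these, 1 rose and none fell (0 at an unadjusted p under 0.05, and 0 by edgeR and DESeq2). The shares over all tested genes were 20.5% rises and 21.5% falls. The gene that rose was Kdr, a VEGF receptor, with 360 and 392 counts after NMDA, against 241 and 193 in the controls, while Cldn5, the tight junction gene of brain endothelium, was at 0 in every library. Without NMDA replicate 1, 3 endothelial genes rose, and the median was -0.11 without NMDA replicate 2. Of 8 endoderm and epithelium genes, 6 were tested and none passed by limma, edgeR or DESeq2, with 2 at an unadjusted p under 0.05 by limma. Without NMDA replicate 1, 4 of them rose, and without control replicate 2, 1 did. The keratin genes Krt18 and Krt8 were higher in the second library of each group, with 136 and 348 counts of Krt18 after NMDA, against 86.2 and 135 in the controls, and 87.8 and 295 counts of Krt8 after NMDA, against 72.7 and 147 in the controls.

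Of 8 microglia genes, the 1 tested was Tmem119, which rose by 0.68 ± 0.14 (limma adjusted p = 0.00647), a call lost without control replicate 1. It had 198 and 211 counts after NMDA, against 123 and 132 in the controls, while Aif1, Cx3cr1, Csf1r, Itgam and Trem2 had at most 5.27 counts in any library. Of 7 pluripotency genes, Esrrb alone was tested, and it fell by 1.30 ± 0.16 (limma adjusted p = 0.000906) to 223 and 173 counts after NMDA, against 535 and 438 in the controls. Esrrb is an orphan nuclear receptor gene of pluripotent cells that is also used in other tissues. Pou5f1 and Nanog, which define pluripotency, had at most 6.15 and 9.88 counts in any library.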
